A study of Tachysurus vachellii with 6 samples.

Results

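DDIT4 genes encode small stress proteins that slow the growth kinase mTOR. They were followed here, with the core genes of the mTOR brake, in gill RNA of hybrid yellow catfish held at low or ordinary oxygen. The members were LOC113639893, every other gene whose description names DNA damage-inducible transcript 4, and the genes with the symbols mtor, rptor, rictor, tsc1, tsc2 and eif4ebp1. This gave 7 of the 28288 genes in the table: 3 DDIT4 genes (LOC113639893, ddit4 and ddit4l) and mtor, rictor, tsc1 and tsc2. The symbols rptor and eif4ebp1 had 0 rows. LOC113639893 was chosen for its difference between the same groups compared below, so its values are a description and carry no test, whereas the other 6 were chosen by name.

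The fish were hybrids of a Tachysurus fulvidraco female and a Pseudobagrus vachellii male. After acclimation and a fast, 9 fish were kept for 96 h at 1.5 mg/L dissolved oxygen (hypoxia) and 9 at 6.5 mg/L (control, called normoxia here). Equal amounts of RNA were mixed from 3 fish at a time, which gave 3 libraries per group, so every SD, SE and p-value covers pools of fish, not individual fish. Values are given as FPKM, the deposited level per transcript length and library total, and as the log2 change of hypoxia over normoxia. The log2 change comes from edgeR on the deposited counts, and its SE was derived from the edgeR test.

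In vertebrates, mTOR works as a protein kinase in a pair of complexes, mTORC1 with raptor and mTORC2 with rictor. mTORC1 promotes translation and holds back autophagy, and the TSC1 and TSC2 proteins keep it off by switching off the small GTPase RHEB. In mammals, DDIT4 (also called REDD1) is induced by low oxygen through hypoxia-inducible factors and by other stresses, and it restrains mTORC1 through the TSC proteins.

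Total counts were 44762764 to 55016223 per library, and 15312 genes were tested, those that reached an FPKM of 1 in 3 or more of the 6 libraries. At an adjusted p under 0.05 edgeR called 1461 of them, or 9.54%, with 825 higher (5.39%) and 636 lower (4.15%) in hypoxia. Of the calls 56.5% were thus higher, whereas 31.0% were with library totals alone, 35.1% in limma on log2(FPKM + 1) and 67.9% with an offset for transcript length. The median log2 change of the tested genes was -0.04 with TMM scaling and -0.20 with library totals alone. In 37.3% of tested genes no FPKM of 1 group fell within the range of the other, with 25.9% of tested genes lower and 11.4% higher in hypoxia. Of the 15312 tested genes, 4643 had an unadjusted edgeR p under 0.05, and DESeq2 called 3332 and limma on log2(FPKM + 1) 1366. Among markers of gill cell types, krt18 of epithelia ran from 789.9 to 2215 FPKM, with a log2 change of -0.21, and the 4 ionocyte markers summed to between 191.3 and 281.8 FPKM. The other epithelial marker, tp63, had a log2 change of -1.001 with groups apart (edgeR, adjusted p = 0.0503) and was called by DESeq2 and limma. The 4 endothelial markers summed to 10.5 to 14.9 FPKM in normoxia and 7.75 to 11.8 in hypoxia, and 0 of 4 were called by edgeR, DESeq2 or limma, with 0 at an unadjusted edgeR p under 0.05. The 11 red cell markers summed to 6777 to 14750 FPKM in normoxia and 7293 to 9961 in hypoxia; 7 of the 9 tested had a log2 change below 0, and hemgn was lower (log2 change -1.30; edgeR, adjusted p = 0.0422). The 1 striated muscle marker in the table stayed at or below 0.171 FPKM. The mucous cell marker agr2 was at 349.6 to 675.7 FPKM in normoxia and 139.9 to 327.0 in hypoxia and did not pass (edgeR, adjusted p = 0.0928). The 7 leukocyte markers summed to between 537.9 and 617.4 FPKM in normoxia and between 416.2 and 456.5 in hypoxia. All 7 had a log2 change below 0, cd79a and spi1 passed the test as lower, and none was at 0 throughout. DESeq2 and limma each called 4 of the 7. Of the same 7 markers 5 had an unadjusted edgeR p under 0.05, and 6 had groups that did not overlap.

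LOC113639893, described as DNA damage-inducible transcript 4 protein-like, lies on the plus strand of scaffold NW_020848328.1 between bases 4429885 and 4431663. It was at 0.447, 0.847 and 0.643 FPKM in normoxia replicates 1, 2 and 3. In hypoxia replicates 1, 2 and 3 it was at 23.9, 26.1 and 23.4 FPKM. The lowest hypoxia library was far above the highest normoxia library, and the 3 hypoxia libraries lay close together. The counts behind these levels were 41, 67 and 53 in normoxia and 1769, 2292 and 2117 in hypoxia. The gene passed the filter on low values only through the hypoxia libraries, so a tested gene of this kind had to differ between the groups.

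The mean level of LOC113639893 was 0.645 ± 0.200 FPKM in normoxia and 24.4 ± 1.43 in hypoxia (SD, n = 3 each). The log2 change was 5.40 with an SE of 0.27, or 42.3-fold, which was the 6th highest among the tested genes. Its coefficient of variation was 31.0% in normoxia and 5.87% in hypoxia. Ranked by FPKM among all genes of the table, it stood between places 16126 and 16735 in the normoxia libraries and between places 2545 and 2963 in the hypoxia libraries. In whole gill tissue, more cells that hold a transcript and more of it per cell cannot be told apart.

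The gene with the plain symbol ddit4, described as DNA damage-inducible transcript 4 protein, lies on another scaffold, NW_020848090.1, on the minus strand between bases 695819 and 698013. Its level was 817.8, 570.7 and 595.9 FPKM in normoxia replicates 1, 2 and 3. In hypoxia replicates 1, 2 and 3 it was 1714, 1104 and 407.8 FPKM. Hypoxia replicates 1 and 2 were above every normoxia library and hypoxia replicate 3 was below every one, so the groups overlapped. The means were 661.5 ± 136 and 1075 ± 653 FPKM (SD, n = 3 each). The log2 change of 0.91 (SE 0.52) did not pass the test (edgeR, adjusted p = 0.284).

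The ddit4 value rested on single hypoxia libraries. Without hypoxia replicate 3 the log2 change was 1.32 (edgeR, adjusted p = 0.0609), and without hypoxia replicate 1 it was 0.32. In the fits without each of the 6 libraries in turn, ddit4 passed in 0. The highest hypoxia library held 4.20 times the FPKM of the lowest, against 1.43 times among the normoxia libraries. For LOC113639893 the same ratio among hypoxia libraries was 1.12. Within hypoxia, ddit4 thus spread widely between pools, whereas LOC113639893 stayed nearly level. Choice by a contrast between groups can favour a gene with close libraries, so the evenness of LOC113639893 is a description only. The TMM factor of hypoxia replicate 1, 0.867, was the lowest of the 6 libraries. With library totals alone, so without TMM factors, the ddit4 log2 change was 0.69 (edgeR, adjusted p = 0.34). In edgeR with DESeq2 size factors it was 0.92. The part of the factor of hypoxia replicate 1 by itself was not tested.

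ddit4 was among the most abundant transcripts of the gill under both conditions. It ranked between places 133 and 157 by FPKM in normoxia and between places 99 and 207 in hypoxia. It took 0.0680% to 0.0968% of all counts in normoxia libraries and 0.0483% to 0.202% in hypoxia libraries. The LOC113639893 level, though far higher in hypoxia, remained well below that of ddit4 in each library.

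The third DDIT4 gene, ddit4l, encodes the relative known in mammals as REDD2, which also restrains mTORC1. It lies on the minus strand of scaffold NW_020848008.1 between bases 1803886 and 1806287. Its level was 6.04, 7.43 and 4.10 FPKM in normoxia and 1.11, 2.83 and 4.28 FPKM in hypoxia. Hypoxia replicates 1 and 2 lay below the normoxia libraries, and hypoxia replicate 3 lay within their range. The log2 change of -0.98 (SE 0.45) did not pass the test (edgeR, adjusted p = 0.197).

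Added together, the 3 DDIT4 genes reached 824.3, 579.0 and 600.6 FPKM in the normoxia libraries, in order of replicate number, and 1739, 1133 and 435.4 FPKM in the hypoxia libraries. The sums followed ddit4, which made up 93.65% to 99.21% of them in every library. LOC113639893 contributed 0.0542%, 0.146% and 0.107% of the sum in normoxia and 1.37%, 2.30% and 5.37% in hypoxia. Its share was thus higher in each hypoxia library than in any normoxia library, and highest where ddit4 was lowest. Both follow from the choice of LOC113639893 by this contrast and from the large part of ddit4 in the sum. They are no further result. There were 674 to 1831 ddit4 FPKM for each FPKM of LOC113639893 in normoxia, and 17.5 to 71.8 in hypoxia.

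**Figure D1:**
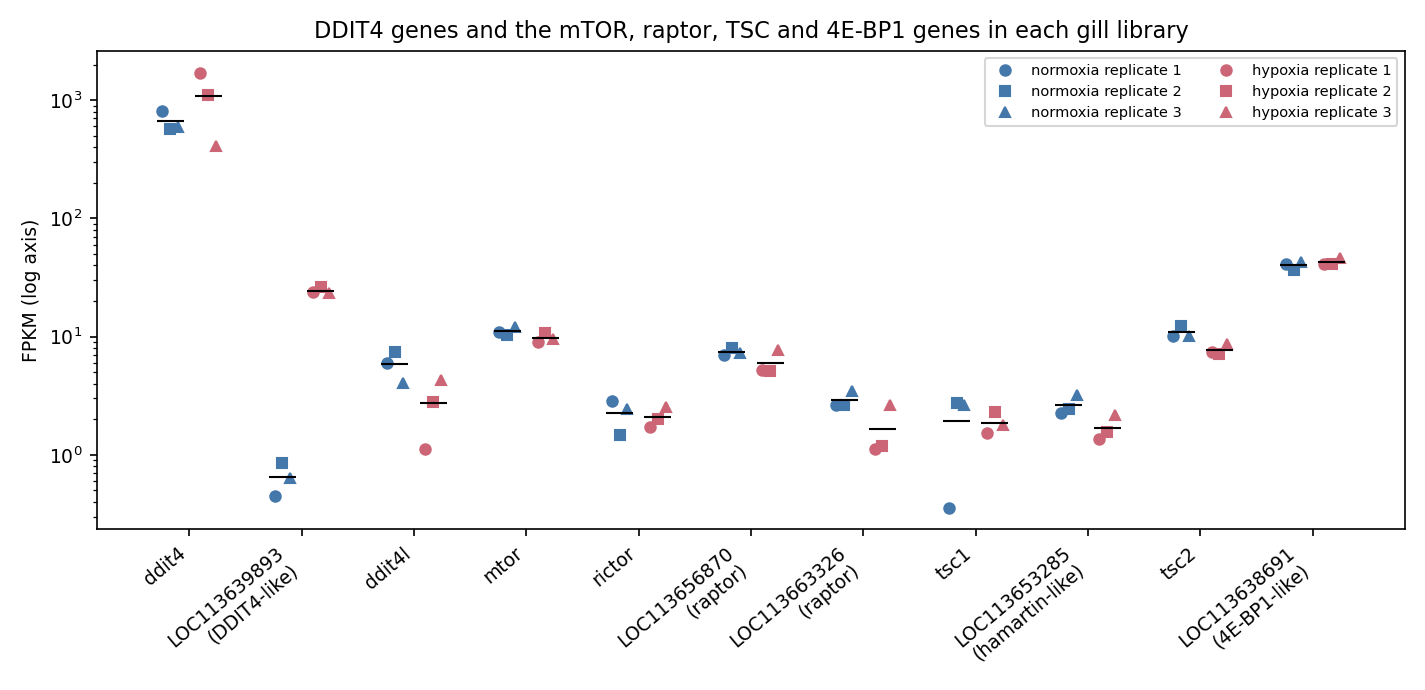
FPKM (log axis) of the 7 members and of 4 genes described alike in each of the 6 libraries; blue points are normoxia, red points hypoxia, symbols mark replicates and black bars are group means. LOC113639893 moved from below 1 FPKM to 23.4 FPKM or more, ddit4 spread from 407.8 to 1714 FPKM within hypoxia, and tsc1 from 0.358 to 2.77 FPKM within normoxia.

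Among the brake genes themselves, tsc2, which encodes tuberin, the part of the TSC complex that switches RHEB off, had groups that did not overlap. It lies on scaffold NW_020848112.1 between bases 144466 and 180757. Its level was 10.2, 12.4 and 10.1 FPKM in normoxia and 7.41, 7.15 and 8.68 FPKM in hypoxia, so every hypoxia library was below every normoxia library. As stated, 25.9% of all tested genes had groups apart in this direction. The log2 change was -0.33 (SE 0.13) and did not pass after adjustment (edgeR, unadjusted p = 0.0328, adjusted p = 0.130). It was -0.08 with the offset for transcript length and -0.50 with library totals alone.

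tsc1, which encodes a hamartin-like protein that holds the TSC complex together, lies on scaffold NW_020847807.1 between bases 828419 and 848499. It was at 0.358, 2.77 and 2.67 FPKM in normoxia and at 1.52, 2.32 and 1.79 FPKM in hypoxia. Normoxia replicate 1 stood apart as the lowest of the 6, and the other normoxia libraries were above all hypoxia libraries. The log2 change was 0.13 (SE 0.64; edgeR, adjusted p = 0.911), and without normoxia replicate 1 it was -0.34. A further gene described as hamartin-like, LOC113653285, was at 2.26, 2.45 and 3.24 FPKM in normoxia and at 1.35, 1.55 and 2.19 FPKM in hypoxia. Its groups did not overlap, and its log2 change of -0.49 (SE 0.21) did not pass (edgeR, adjusted p = 0.171).

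mtor, the kinase itself, lies on scaffold NW_020847974.1 between bases 2542237 and 2624290. It was at 10.9, 10.4 and 12.1 FPKM in normoxia and at 8.99, 10.7 and 9.57 FPKM in hypoxia, with overlapping groups. The means were 11.1 ± 0.847 and 9.74 ± 0.841 FPKM (SD, n = 3 each), and the log2 change was -0.03 (SE 0.13; edgeR, adjusted p = 0.911). With the offset for transcript length the log2 change was 0.29, of the opposite sign. Set against mtor, LOC113639893 stood at 0.0412, 0.0814 and 0.0534 of the mtor FPKM in normoxia and at 2.66, 2.45 and 2.44 times it in hypoxia.

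rictor, the defining subunit of mTORC2, lies on scaffold NW_020848287.1 between bases 1374587 and 1418636. It was at 2.86, 1.47 and 2.44 FPKM in normoxia and at 1.74, 2.01 and 2.52 FPKM in hypoxia. The groups overlapped almost wholly and the log2 change was 0.03 (SE 0.26; edgeR, adjusted p = 0.950). It was -0.12 with library totals alone.

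For the missing symbols, genes described alike were read after the table had been seen. A pair of genes is described as regulatory-associated protein of mTOR, which is raptor, the subunit that brings targets to mTORC1. LOC113656870 was at 7.06, 8.02 and 7.22 FPKM in normoxia and 5.20, 5.16 and 7.73 FPKM in hypoxia (log2 change -0.16, SE 0.16; edgeR, adjusted p = 0.544). LOC113663326 was at 2.63, 2.64 and 3.49 FPKM in normoxia and 1.13, 1.18 and 2.63 FPKM in hypoxia (log2 change -0.70, SE 0.40; edgeR, adjusted p = 0.285). In both, hypoxia replicates 1 and 2 were below all normoxia libraries. Hypoxia replicate 3 lay within the normoxia range for LOC113656870 and just below it for LOC113663326.

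A gene described as 4E-BP1-like, LOC113638691, stands for the repressor of translation that mTORC1 inactivates. It was at 41.0, 37.0 and 42.5 FPKM in normoxia and at 40.8, 40.9 and 46.6 FPKM in hypoxia. The groups overlapped and the log2 change of 0.25 (SE 0.11) did not pass (edgeR, adjusted p = 0.192). Of the 6 members other than LOC113639893, edgeR, DESeq2 and limma on log2(FPKM + 1) each called 0 at an adjusted p under 0.05, and 1, tsc2, had an unadjusted edgeR p under 0.05. The share called by edgeR among all 15312 tested genes was 9.54%, with 3332 called by DESeq2, 1366 by limma and 4643 at an unadjusted edgeR p under 0.05.

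LOC113639893 changed place the most in the order of the levels, which follows from its choice by this contrast and is no further result. In normoxia ddit4 was highest, the 4E-BP1-like gene followed, then mtor and tsc2 with overlapping ranges, then LOC113656870 and ddit4l, also overlapping. LOC113663326, LOC113653285, rictor, tsc1 and LOC113639893 came last, each with a range that overlapped that of its neighbour. In hypoxia LOC113639893 stood in the 3rd place, below the 4E-BP1-like gene and above mtor, and its range overlapped neither. At the lower end in hypoxia, ddit4l, rictor, tsc1, LOC113653285 and LOC113663326 overlapped in turn. LOC113663326 went from the 7th place in normoxia to the last in hypoxia, among these overlapping ranges.

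The wider mTOR pathway was read from a list of genes by name and role, chosen with earlier results of these data known. It had 107 genes in the table, of which 93 were tested. Without LOC113639893, 2 of 92 were called higher and 4 lower, beside 9.54% called among all tested genes, and their median log2 change was -0.02. The called genes sat in the translation targets, the amino acid arm and the PI3K arm.

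Of the 12 tested subunits of the mTOR complexes in the list, 0 passed in edgeR, DESeq2 or limma and 1 had an unadjusted edgeR p under 0.05. Their median log2 change was 0.00. For scale, edgeR called 9.54% of all 15312 tested genes, DESeq2 3332 and limma 1366, and 4643 had an unadjusted edgeR p under 0.05. The list did not hold the raptor genes LOC113656870 and LOC113663326 given above. The most abundant was prr5l, which encodes an mTORC2 partner, with a log2 change of 0.18 (SE 0.18). Of the 5 tested genes for the TSC complex and RHEB, 0 passed in each of these tools and 1 had an unadjusted p under 0.05, with a median of -0.33. The most abundant of them, LOC113643150, described as Rheb-like, was at 18.3 ± 1.16 FPKM in normoxia and 16.6 ± 2.91 in hypoxia (SD, n = 3 each), and the sign of its log2 change, 0.01, turned under other scalings.

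Of the 10 stress-induced inhibitors and their partners, LOC113639893 left aside as it carries no test, none passed in edgeR. The median log2 change of the 10 was 0.27. DESeq2 called 2 and limma 1 of the 10, and 3 had an unadjusted edgeR p under 0.05, with LOC113639893 included in all 3 counts. Over all 15312 tested genes these counts were 3332, 1366 and 4643, and edgeR called 9.54%. The most abundant was LOC113662807, a gene for a thioredoxin-interacting protein-like product, which in mammals binds DDIT4 and prolongs its action. It was at 1278, 1135 and 995.4 FPKM in normoxia and at 1735, 1596 and 1167 FPKM in hypoxia. Hypoxia replicates 1 and 2 were above all normoxia libraries, as for ddit4, and replicate 3 lay within their range. The log2 change of 0.58 (SE 0.25) did not pass (edgeR, adjusted p = 0.176). sesn1, a sestrin gene of the same group that was named after its values were seen, was at 32.7 FPKM on average in normoxia and 16.7 in hypoxia. Its groups did not overlap, and its log2 change of -0.78 did not pass (edgeR, adjusted p = 0.102). DESeq2 called sesn1, whereas limma on log2(FPKM + 1) did not.

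Among the 21 tested genes of the amino acid arm, which brings mTORC1 to the lysosome, 1 rose and 2 fell. Their median log2 change was -0.06, and the share called among all tested genes was 9.54%. DESeq2 called 4 and limma 2 of them, and 7 had an unadjusted edgeR p under 0.05. For all 15312 tested genes these counts were 3332, 1366 and 4643. seh1l, a subunit of the GATOR2 complex, was at 18.3, 18.0 and 17.5 FPKM in normoxia and rose to 27.8, 23.3 and 25.2 FPKM in hypoxia (log2 change 0.67, SE 0.14; edgeR, adjusted p = 0.0383). castor2, a relative of the arginine sensor that holds GATOR2 back, was at 11.4, 13.3 and 13.0 FPKM in normoxia and fell to 5.51, 8.44 and 6.65 FPKM in hypoxia (log2 change -0.72, SE 0.17; edgeR, adjusted p = 0.0491). In both genes the groups did not overlap. The call of castor2 ended with the offset for transcript length, at a log2 change of -0.60, and seh1l did not pass with library totals alone. lamtor5, a Ragulator subunit and the most abundant uncalled gene of this arm, had a log2 change of 0.44 (SE 0.16; edgeR, adjusted p = 0.116).

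Of the 10 tested genes of the AMPK arm, the energy sensor that also restrains mTORC1, 0 passed in edgeR, DESeq2 or limma and 0 had an unadjusted edgeR p under 0.05. The most abundant, LOC113638845, described as an AMPK beta-1 subunit, was at 45.2 ± 3.23 FPKM in normoxia and 44.4 ± 4.47 in hypoxia (SD, n = 3 each). Its log2 change was 0.14, and it was -0.04 with library totals alone. Beside the 0 calls of this arm, edgeR called 9.54% of all 15312 tested genes, DESeq2 3332 and limma 1366. An unadjusted edgeR p under 0.05 was found for 4643 of them.

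Of the 19 tested genes of the PI3K and AKT arm, which carries growth factor signals to mTOR, 0 rose and 2 fell. Among all tested genes 5.39% were called higher and 4.15% lower. The median log2 change of the 19 was -0.35. DESeq2 called 6 and limma 4 of them, 11 had an unadjusted edgeR p under 0.05, and in 12 the groups did not overlap. Among all 15312 tested genes the first 3 counts were 3332, 1366 and 4643, and 37.3% had groups that did not overlap. As shares of the genes tested, all of these were higher in the arm. pik3cd encodes the catalytic PI3K subunit that is known from leukocytes in mammals. It fell from 21.5, 19.0 and 16.3 FPKM in normoxia to 10.0, 8.64 and 11.2 FPKM in hypoxia (log2 change -0.77, SE 0.16; edgeR, adjusted p = 0.0358). LOC113654717, described as insulin receptor substrate 2-B-like, fell from 3.44, 4.27 and 4.40 FPKM to 1.65, 1.80 and 2.18 FPKM (log2 change -0.95, SE 0.15; edgeR, adjusted p = 0.0225). Both had groups that did not overlap. The call of pik3cd ended with the offset for transcript length. The leukocyte markers were also lower in hypoxia, with summed levels of 416.2 to 456.5 FPKM against 537.9 to 617.4 FPKM in normoxia, and their part in the fall of pik3cd was not tested. pik3r1, a regulatory PI3K subunit and the most abundant gene of the arm, had a log2 change of -0.35 (SE 0.26) and was not called (edgeR, adjusted p = 0.415).

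Among the 16 tested targets of mTOR in translation and autophagy, 1 rose and 0 fell, beside 9.54% called among all tested genes. Their median log2 change was 0.15. DESeq2 called 4 and limma 1 of them, and 4 had an unadjusted edgeR p under 0.05. Over all 15312 tested genes these counts were 3332, 1366 and 4643. The gene that rose was eef2k, which encodes the kinase that slows translation elongation and that mTORC1 signalling holds back in mammals. It was at 21.1, 26.2 and 26.0 FPKM in normoxia and at 62.6, 54.1 and 69.6 FPKM in hypoxia. The lowest hypoxia library was above the highest normoxia library by a wide margin. The means were 24.4 ± 2.87 and 62.1 ± 7.77 FPKM (SD, n = 3 each), with a log2 change of 1.51 (SE 0.15; edgeR, adjusted p = 0.00628). eef2k passed without each of the 6 libraries in turn. Of the other called pathway genes named above, LOC113654717 passed in 2 of these 6 fits, castor2 in 1 and seh1l and pik3cd in 0.

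rps6, a ribosomal protein gene and the most abundant of the targets, was at 1950, 2011 and 1983 FPKM in normoxia and at 3062, 2454 and 1966 FPKM in hypoxia. Hypoxia replicate 1 was highest and replicate 3 lay within the normoxia range, the same order as for ddit4. The log2 change of 0.51 (SE 0.24) did not pass (edgeR, adjusted p = 0.200).

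**Figure D2:**
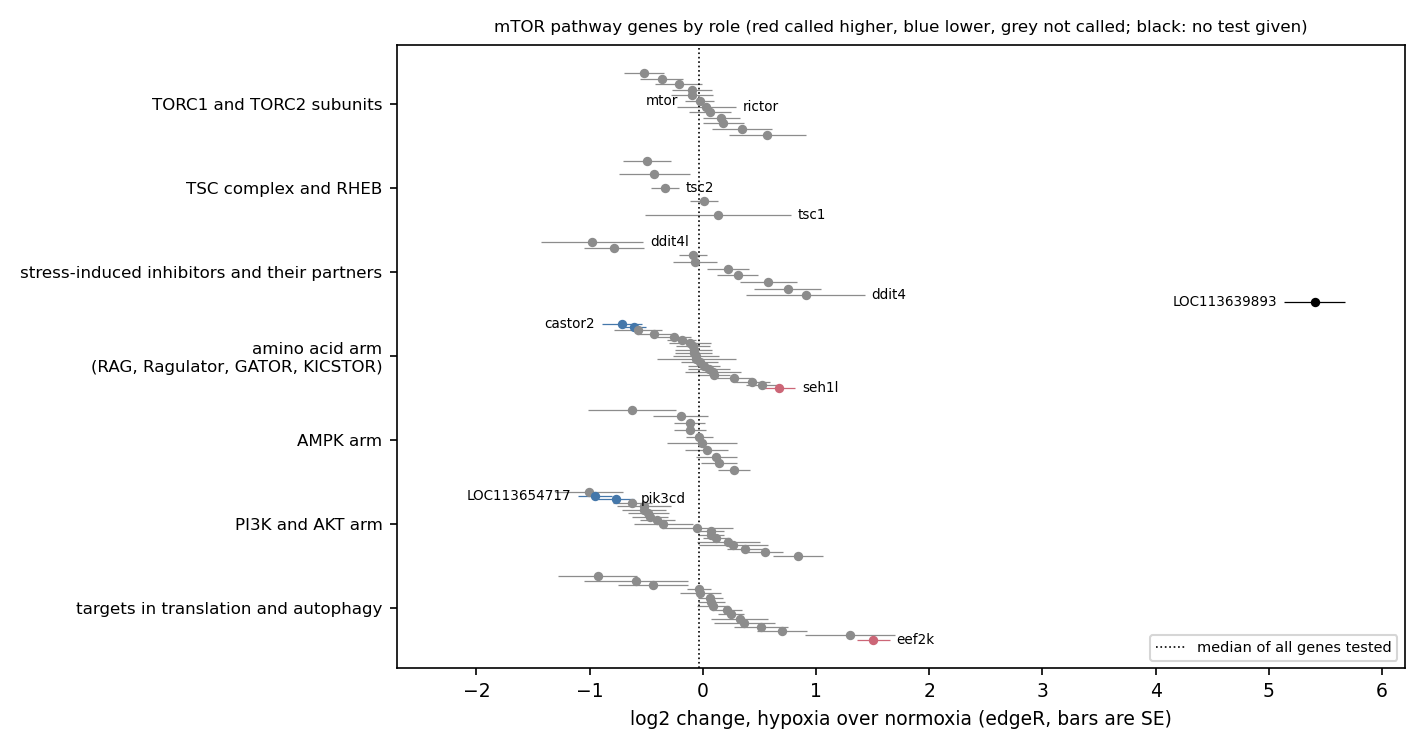
Log2 change of hypoxia over normoxia (points, with SE as bars) for the 93 tested genes of the mTOR pathway list in rows by role; red and blue mark genes called higher and lower by edgeR, grey those not called, and black LOC113639893, for which no test is given. LOC113639893 stands at 5.40, eef2k at 1.51, and the other genes lie between -1.01 and 1.30, around the dotted median of all tested genes.

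The table's own KEGG annotation for mTOR signaling gave a further list, added after the table was seen. Of its 157 genes 123 were tested, 3 were higher and 8 were lower, with a median log2 change of -0.16. The 3 include LOC113639893, which was chosen by this contrast and carries no test. The share called, 11 of 123 with LOC113639893 counted, was near the 9.54% called among all tested genes. LOC113660541, described as eIF4B-like, an initiation factor, rose from 42.2 ± 2.39 to 61.0 ± 7.63 FPKM (SD, n = 3 each; log2 change 0.69; edgeR, adjusted p = 0.0277). LOC113653062, described as an eIF4E type 2-like cap-binding protein, rose from 41.1 ± 4.93 to 59.0 ± 7.34 FPKM (SD, n = 3 each; log2 change 0.68; edgeR, adjusted p = 0.0342). On the lower side pik3r5, a regulatory subunit of the PI3K gamma form, was at 41.6, 40.8 and 40.3 FPKM in normoxia and at 24.2, 24.0 and 24.5 FPKM in hypoxia (log2 change -0.59, SE 0.12; edgeR, adjusted p = 0.0335). The PI3K genes pik3cd and LOC113658082 were among the 8 as well. The largest falls were in LOC113659608 and LOC113655495, both described as uncharacterized, with log2 changes of -3.17 and -2.41. The rest were LOC113659158 (protein kinase C beta type, -1.36), LOC113645880 (copine-8, -1.10) and LOC113661748 (3-phosphoinositide-dependent protein kinase 1-like, -0.76).

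The factors known in mammals to act on ddit4 were read next. Of the 11 tested transcription factors and 6 tested ubiquitin ligase and phosphoserine-binding partners, 0 passed in edgeR, 3 in DESeq2 and 1 in limma. Of the same genes 3 had an unadjusted edgeR p under 0.05. Among all 15312 tested genes edgeR called 9.54%, DESeq2 3332 and limma 1366, and 4643 had an unadjusted edgeR p under 0.05. Of the 11 transcription factors 9 had a log2 change below 0 and 2 above 0, with a median of -0.19. The lowest was at -1.001, and the smallest adjusted p in edgeR was 0.0503. Both values equal those given above for the epithelial marker tp63, so both lists may hold this gene and are not read as independent. In 6 of the 11 transcription factors the groups did not overlap, beside 37.3% of all tested genes. The 6 partners had a median of 0.27, with 4 above 0 and 2 below. The most abundant factor was atf4, the stress factor that induces DDIT4 and genes of amino acid synthesis, and 1 of the 2 above 0. It was at 997.0, 754.7 and 912.0 FPKM in normoxia and at 976.4, 1021 and 1159 FPKM in hypoxia. The groups overlapped through normoxia replicate 1, and the log2 change of 0.40 (SE 0.17) did not pass (edgeR, adjusted p = 0.173). Hypoxia replicate 3, lowest in ddit4, was highest in atf4. ywhaq, a phosphoserine-binding protein gene, had a log2 change of 0.47 (SE 0.13) and did not pass (edgeR, adjusted p = 0.0666).

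Transcripts that answer to mTOR activity in mammals were read as 3 groups. Of 9 tested ATF4 genes of amino acid and one-carbon metabolism, 4 rose and 0 fell, beside 5.39% called higher and 4.15% lower among all tested genes. All 9 had a log2 change above 0, with a median of 0.87, against a median of -0.04 over all tested genes. DESeq2 called 7 and limma 3 of the 9, beside 3332 and 1366 of all 15312 tested genes. mthfd1l, a mitochondrial folate enzyme, was at 0.956, 1.12 and 1.25 FPKM in normoxia and rose to 4.57, 4.13 and 4.74 FPKM in hypoxia (log2 change 2.18, SE 0.17; edgeR, adjusted p = 0.00361). pycr1, which makes proline, was at 15.1, 11.9 and 14.3 FPKM in normoxia and rose to 34.1, 29.2 and 42.0 FPKM in hypoxia (log2 change 1.50, SE 0.16; edgeR, adjusted p = 0.00885). psph and asns, which make serine and asparagine, rose with log2 changes of 1.22 (SE 0.20; edgeR, adjusted p = 0.0234) and 0.87 (SE 0.18; edgeR, adjusted p = 0.0344). mthfd1l and pycr1 passed without each of the 6 libraries in turn, and psph and asns in 1 of the 6 fits each. chac1, which breaks down glutathione, spread from 40.5 to 150.8 FPKM in hypoxia and did not pass (log2 change 1.44, SE 0.43; edgeR, adjusted p = 0.0746).

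Of 9 tested SREBP genes of sterol and lipid synthesis, 0 passed in edgeR, 1 in DESeq2 and 0 in limma. An unadjusted edgeR p under 0.05 was found for 3 of the 9, and the median log2 change was -0.01. Of all 15312 tested genes, edgeR called 9.54%, DESeq2 3332 and limma 1366, and 4643 had such an unadjusted p. Of 10 tested TFEB genes of lysosomes and autophagy, 1 fell and 0 rose, beside 4.15% called lower and 5.39% higher among all tested genes. The median log2 change of the 10 was -0.14, and DESeq2 and limma also called 1 each. The gene that fell was mcoln1, a lysosomal calcium channel, from 16.2, 16.1 and 15.9 FPKM to 10.4, 9.11 and 10.9 FPKM (log2 change -0.51, SE 0.12; edgeR, adjusted p = 0.0466). It passed in 0 of the 6 fits without 1 library, and not with the offset for transcript length.

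The position of the DDIT4 genes was read from the scaffold coordinates. LOC113639893 is followed, after a gap of 128 bases, by LOC113639892 on the opposite strand, described as dnaJ homolog subfamily B member 12-like. LOC113639892 was at 25.6, 28.3 and 26.6 FPKM in normoxia and at 33.8, 31.9 and 28.5 FPKM in hypoxia. Its groups lay narrowly apart, and the log2 change of 0.40 (SE 0.15) did not pass (edgeR, adjusted p = 0.127). On the other side LOC113639918, described as testican-2-like, had a log2 change of -0.29 (SE 0.41; edgeR, adjusted p = 0.678). Beyond it tysnd1 was at -0.02, the SAR1a gene LOC113639742 at -0.64, ppa1 at 0.65 and eif4ebp2, which encodes another translation repressor of the 4E-BP family, at 0.08, and none of these 4 was called. eif4ebp2 was at 29.6 FPKM in normoxia and 28.0 in hypoxia on average and lies 52364 bases away. The log2 changes of these neighbours thus lay between -0.64 and 0.65, and the 5.40 of LOC113639893 is the value it was chosen for. In ppa1 the groups did not overlap, beside 11.4% of all tested genes apart in that direction.

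Further along the scaffold, 28594 bases past LOC113639893, lies hif1an, which encodes the asparagine hydroxylase that inhibits hypoxia-inducible factor. It and its next neighbour lie outside the 5 nearest genes and were named after their values were seen. hif1an rose from 11.5 ± 0.872 to 41.5 ± 4.50 FPKM (SD, n = 3 each; log2 change 2.01, SE 0.13; edgeR, adjusted p = 0.00204). cuedc2, on the opposite strand beyond hif1an, was at 4.21, 3.90 and 4.64 FPKM in normoxia and rose to 7.93, 10.1 and 10.5 FPKM in hypoxia (log2 change 1.32, SE 0.14; edgeR, adjusted p = 0.00760). LOC113639760, described as Wnt-8b, overlaps the start of hif1an on the other strand and had 0 counts in each normoxia library and 13, 35 and 34 in the hypoxia libraries. The sources used here do not give the strand setting of the counting, so the reads of these overlapping genes cannot be told apart. Between hif1an and LOC113639893, trmt2b, a tRNA methyltransferase gene, had a log2 change of 0.14 and was not called (edgeR, adjusted p = 0.751). LOC113639949, described as acyl-CoA desaturase, and LOC113639755, also described as Wnt-8b, lie there too and were under the level filter. LOC113639755 had 0 counts in every library.

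ddit4 also has a DnaJ B12 gene beside it, dnajb12, at a gap of 1606 bases. dnajb12 was at 8.79, 13.5 and 12.6 FPKM in normoxia and 6.93, 8.95 and 7.25 FPKM in hypoxia, and its log2 change of -0.42 (SE 0.20) did not pass (edgeR, adjusted p = 0.209). On its other side anapc16 was at 0.16 and ascc1 at 0.92, with an adjusted p of 0.0513 in edgeR. Both scaffolds carry a DDIT4 gene together with genes described as DnaJ B12, testican-2, SAR1 and inorganic pyrophosphatase, which are 4 neighbour families in common. In the RefSeq gene order of another assembly, HZAU_Pvac_v1, ddit4 likewise lies beside dnajb12b with sar1aa and ppa1a near. In that assembly a protein-coding gene without a symbol lies between spock2 and dnajb12a, close to sar1ab, ppa1b and eif4ebp2. The shared neighbours were noticed after the table was seen, and 0 gene identifiers matched between the table and that assembly. Reads shared between the copies cannot be seen in a table of counts, and were not tested; in the hypoxia libraries ddit4 had 90542, 69244 and 26354 counts and LOC113639893 1769, 2292 and 2117.

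**Figure D3:**
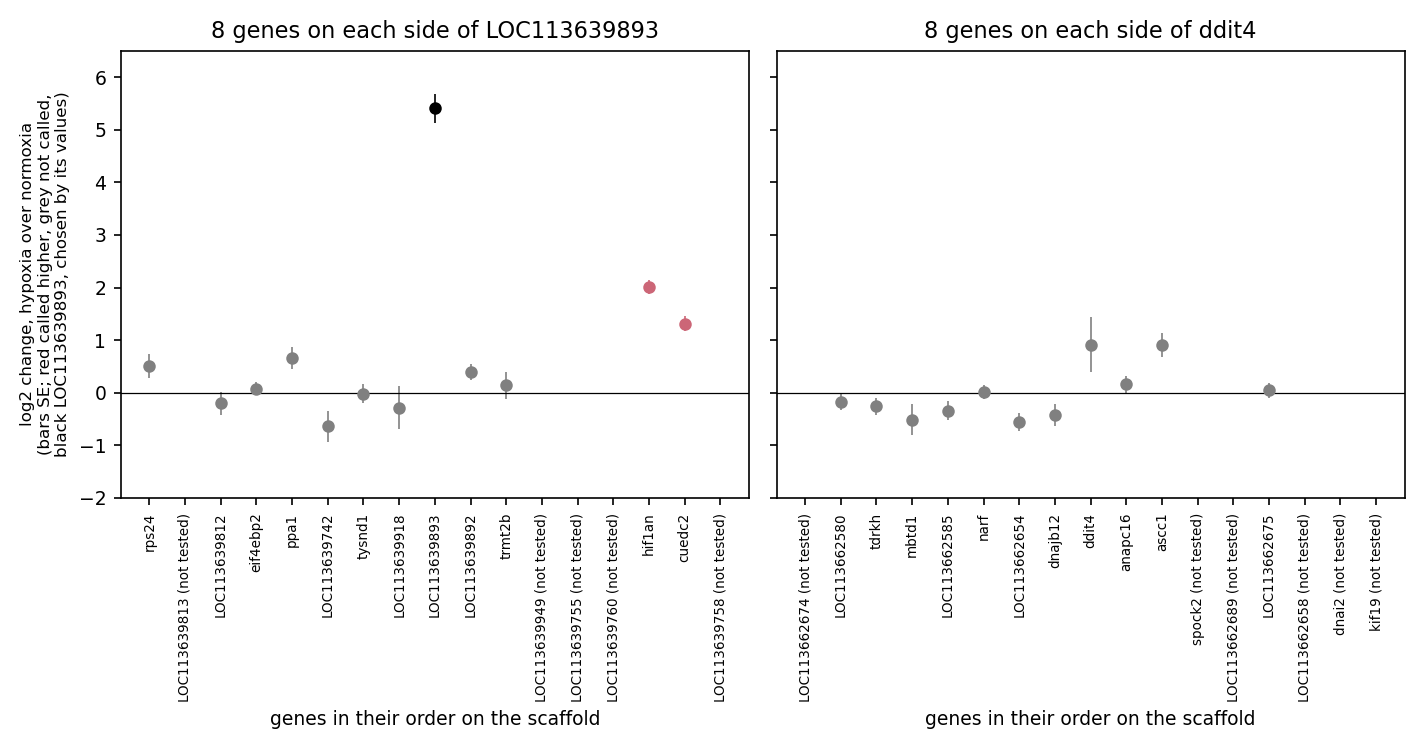
Log2 change of hypoxia over normoxia (points, with SE as bars) for the 8 genes on each side of LOC113639893 and of ddit4 in their scaffold order; red marks genes called higher by edgeR, grey those not called and black LOC113639893, and genes under the level filter have no point. LOC113639893, chosen by its value, stands at 5.40, and its immediate neighbours LOC113639918 and LOC113639892 stand at -0.29 and 0.40. The called genes on its scaffold stretch are hif1an at 2.01 and cuedc2 at 1.32.

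The genes whose profile over the 6 libraries was most like that of LOC113639893 were found by the root mean square difference of TMM-scaled log2 CPM, each gene centred on its normoxia mean. This measure uses the same contrast that chose LOC113639893, so the genes are listed as a description with no test. The nearest was LOC113651686, described as usherin-like, with a root mean square difference of 0.648, at 0.0849 to 0.325 FPKM in normoxia and 8.66 to 15.1 in hypoxia. LOC113647249, described as intelectin 1, followed with 0.754 and was at 0.290 to 0.495 FPKM in normoxia and 6.65 to 11.1 in hypoxia. LOC113648168, described as NACHT, LRR and PYD domains-containing protein 12-like, had 0.765 and 0 counts in every normoxia library. The remaining 3 were LOC113650707 (interferon-induced protein 44-like, 1.10), LOC113648983 (protocadherin-8-like, 1.25) and LOC113642609 (NLRC3-like, 1.31). None of the other members or of the mTOR pathway genes was among these 6. The highest log2 change among those members and pathway genes was 1.51, so their absence follows from the measure and is no further result. LOC113639893 had the highest mean level in hypoxia of the 7 genes, 24.4 FPKM against 1.51 to 11.1 for the others.

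**Figure D4:**
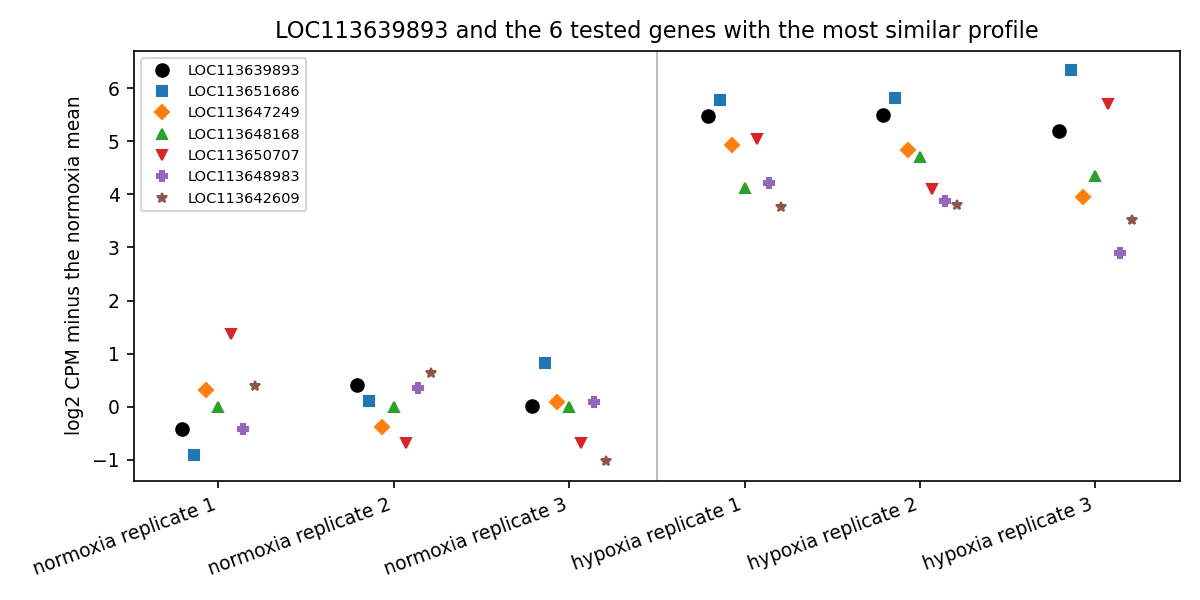
TMM-scaled log2 CPM minus the gene's own normoxia mean, for LOC113639893 (black) and the 6 tested genes most like it, in each of the 6 libraries. Each of the 7 genes lies higher in every hypoxia library than in any normoxia library, as their choice by this contrast implies. LOC113639893 varies little among the hypoxia libraries, which that choice can also favour.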

How the data were processed

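Per the labels' protocols, poly(A) RNA of the gill was captured on oligo-dT beads for paired-end sequencing. The submitters' processing notes name cutadapt 1.9 and HISAT. Counting program, strand setting, build and annotation were not given in the sources used here. In all, the authors deposited 1 table with whole-number counts and FPKM per gene and library. From the counts, edgeR 4.0.16 (quasi-likelihood test, two-sided, TMM scaling, R 4.3.3, Benjamini-Hochberg over all 15312 tested genes) gave log2 changes and p-values. Each edgeR SE was derived as the absolute log2 change over the square root of the F statistic of that test. The alternatives were limma 3.58.1 and DESeq2 1.42.0. Genes needed an FPKM of 1 or more in 3 or more of the 6 libraries. The common coefficient of variation between pools was 0.329, a value over all tested genes that need not hold for genes with few counts. Transcript length for the offset was estimated from counts, FPKM and totals (loess span 0.5). The fit was tested on simulated data. Members and lists were chosen with earlier results of these data known. The genes named were all members, called genes of each list role (up to 6), 1 abundant uncalled gene per role, the 5 nearest genes on each side and the 6 most similar profiles; exceptions are marked, and 1 called gene of the amino acid arm is counted but not reported here. A description is a likeness to proteins of other species, not an identity.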

Additional observations from a re-analysis of the deposited data

How the results depend on the processing

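The log2 change of LOC113639893 was 5.40 and stayed above 0 in every alternative run, with 3.96 in limma on log2(FPKM + 1), 5.07 in limma on log2(FPKM + 0.1) and 5.23 to 5.64 without 1 library in turn. Calls over all genes, 1461, became 3332 in DESeq2, 862 with no FPKM filter, 242 with the replicate block and 132 to 912 without 1 library (132 without normoxia replicate 2, 912 without normoxia replicate 1). mTOR pathway calls, 7, became 16 in DESeq2, 2 with the replicate block and 2 to 3 without 1 library. Both the 7 and the 16 include LOC113639893, which carries no test. Deviations from the group means correlated at -0.0837, 0.0451 and -0.0946 between same-numbered libraries. Between differently numbered libraries they correlated at -0.106 to 0.171. With 3 pools per group this does not settle whether same-numbered libraries share a step of handling, which was not tested. The cause of the moves in the numbers of calls was not tested. Signs turned for 8 named genes, none of them called. With library totals alone the log2 changes were rictor -0.12, tsc1 -0.057, LOC113643150 -0.15, LOC113638845 -0.039 and ctsb, a TFEB gene, -0.088. With no filter mtor was at 0.026 and srebf1, an SREBP gene, at 0.016, and with a mean FPKM of at least 5 LOC113643150 was at -0.066. In limma on log2(FPKM + 1) rictor was at -0.059, LOC113643150 at -0.14, LOC113638845 at -0.029 and ctsb at -0.072, and with a pseudocount of 0.1 the same genes were at -0.073, -0.15, -0.030 and -0.072. With the length offset mtor was at 0.29, srebf1 at 0.20 and LOC113656870 at 0.00131. Without 1 library in turn mtor ran from -0.10 to 0.046, rictor from -0.21 to 0.29, tsc1 from -0.34 to 0.48, LOC113643150 from -0.035 to 0.095, srebf1 from -0.087 to 0.038 and ctsb from -0.038 to 0.20. The 41 to 67 normoxia counts of LOC113639893 limit its fold change more than its hypoxia counts do.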

Other observations

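Further genes of the pathway and of the ddit4l neighbourhood were chosen after their values were seen. LOC113646018, described as 4E-BP3-like and thus a relative of the 4E-BP translation repressors, was at 23.8, 20.2 and 20.6 FPKM in normoxia replicates 1, 2 and 3. In hypoxia it was at 75.4, 28.3 and 35.6 FPKM. All hypoxia libraries were above all normoxia libraries, with replicate 1 far above the rest, and the log2 change of 1.30 (SE 0.40) did not pass (edgeR, adjusted p = 0.0816). deptor, which encodes an mTOR-binding inhibitor, was at 5.12, 6.06 and 5.83 FPKM in normoxia and 2.71, 3.41 and 4.62 FPKM in hypoxia, with groups apart and a log2 change of -0.52 (SE 0.18) that did not pass (edgeR, adjusted p = 0.104). grb10, which encodes an adaptor known in mammals as a substrate of mTORC1, was at 4.68, 3.35 and 5.12 FPKM in normoxia and 5.92, 5.87 and 9.55 FPKM in hypoxia (log2 change 0.84, SE 0.22; edgeR, adjusted p = 0.0583).

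On the scaffold of ddit4l, eif5a, a translation factor gene 25963 bases away, was at 111.7, 96.2 and 113.0 FPKM in normoxia and rose to 178.5, 195.1 and 178.3 FPKM in hypoxia (log2 change 0.95, SE 0.15; edgeR, adjusted p = 0.0226). The gene next to ddit4l on the same side, LOC113657418, which the table does not name, rose from 136.3 ± 21.6 to 265.5 ± 51.6 FPKM (SD, n = 3 each; log2 change 1.12; edgeR, adjusted p = 0.0283). ddit4l itself had a log2 change of -0.98, of the opposite sign, and was not called.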
